A study of Mus musculus with 2 samples.

Results

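The leukocyte microRNAs are 6 of the 2202 microRNA genes counted in the adrenal gland. They were chosen by name for the blood cells they are known from, at a time when earlier results of these data were known. The rule itself uses no measured value. The set holds Mir142 of nearly all blood lineages, Mir223 of myeloid cells, Mir150 of lymphocytes, Mir155 and Mir146b of activated immune cells, and Mir342, which lies in the gene Evl. The samples were adrenal gland tissue of female B6CASTF1/J mice aged 10 days, the first-generation offspring of a C57BL/6J by CAST/EiJ cross. The labels name no treatment, and both libraries belong to 1 group, replicate 2 being the animal numbered 4 and replicate 1 the animal numbered 3. The labels give both samples the same donor entry, so only those numbers set them apart as 2 animals. With 1 group, the data give levels and the spread between these libraries, and no condition can be set against another.

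MicroRNAs are short RNAs cut from hairpin precursors. Loaded on an Argonaute protein, they pair through a seed near their 5′ end with target messages and lower their output. Some are made almost entirely in blood cells, so in an organ their levels can reflect resident macrophages, other immune cells of the tissue and blood left in its vessels. The adrenal gland is rich in sinusoidal capillaries and holds resident macrophages.

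The mature sequences below, from RefSeq on GRCm38.p6, show how distinct the members are from each other. They run 5′ to 3′, and capitals mark the seed, bases 2 to 8.
miR-142a-5p: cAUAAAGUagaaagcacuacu
miR-142a-3p: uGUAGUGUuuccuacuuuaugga
miR-223-3p: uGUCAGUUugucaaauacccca
miR-150-3p: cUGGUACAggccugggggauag
miR-155-5p: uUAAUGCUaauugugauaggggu
miR-342-3p: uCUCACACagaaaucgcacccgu
miR-146b-5p: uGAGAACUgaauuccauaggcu
miR-146a-5p: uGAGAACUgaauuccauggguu
The sequence table held 11 mature products of the 6 members; miR-150-5p is named only. No other gene among its 1738 mature sequences had a product identical to any of the 11. The seed of 1 of them recurred in another gene: miR-146b-5p shares GAGAACU with miR-146a-5p, the product of Mir146, which was not a member. The other 10 products had seeds found in no other gene of that table.

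Together the 6 genes took 0.431% of the reads assigned to microRNA genes in replicate 2, with an exact 95% interval of 0.424 to 0.439%. They took 0.245% in replicate 1, with an interval of 0.239 to 0.252%. The mean was 0.338% ± 0.131 (SD, n = 2). The intervals cover counting error only. Without Mir342, the member with the highest mean, the mean share was 0.197%. Assigned reads numbered 3208821 in replicate 2 and 2023410 in replicate 1, so that 1 read was worth 0.312 and 0.494 CPM, the count scaled to a fixed library total. In this bulk tissue, more leukocytes cannot be told apart from more microRNA per leukocyte.

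At a floor of 10 CPM in both libraries, 5 of the 6 genes were detected, against 302 of all 2202 genes (13.7%). Mir146b was the exception. By mean level the order was Mir342, Mir150, Mir142, Mir155, Mir223 and Mir146b. Among neighbours in this order, the ranges over the 2 libraries did not overlap for Mir342 and Mir150, Mir142 and Mir155, or Mir223 and Mir146b. Those of Mir150 and Mir142 overlapped, as did those of Mir155 and Mir223, and both pairs stood in opposite orders in the 2 libraries. Mir342 and Mir142, which are not neighbours, also overlapped, at 967 to 1857 CPM and 471 to 1023 CPM, with Mir342 higher in both libraries. These levels are CPM per gene, not divided by length, since the mature products of the members printed above are all 21 to 23 bases long and a read can span a whole product. How well ligation and amplification recover each sequence was not tested.

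**Figure D1:**
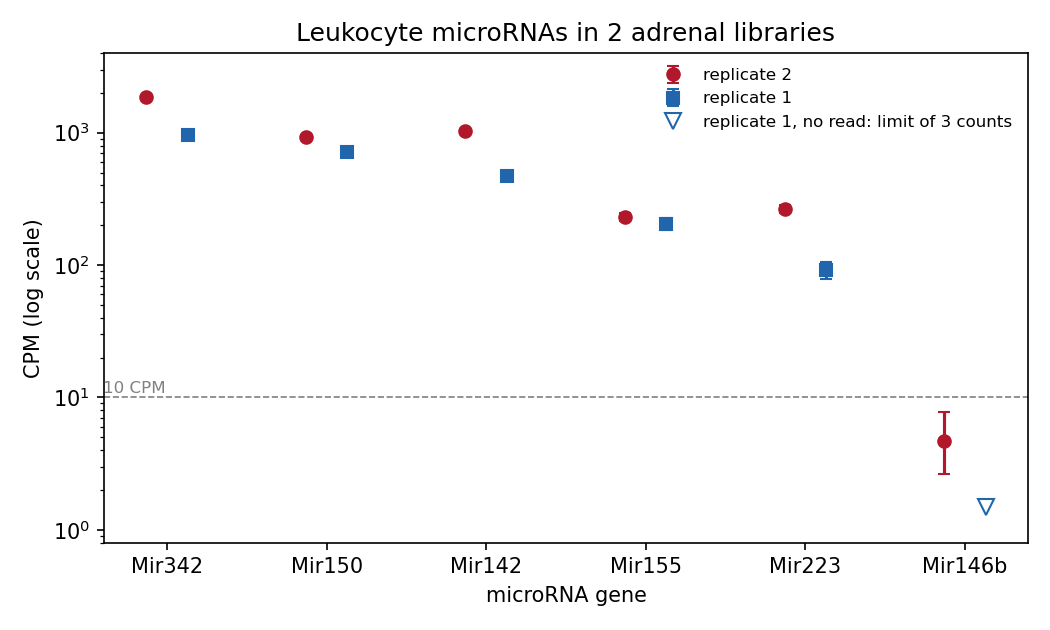
CPM of each leukocyte microRNA gene (log scale) in replicate 2 (red circles) and replicate 1 (blue squares), with exact 95% counting intervals; the open triangle is the 1.48 CPM that 3 counts would give where Mir146b had no read in replicate 1. The 5 other genes stand above the dashed line at 10 CPM in both libraries, and each is higher in replicate 2.

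Mir142, made in nearly all blood lineages and needed for normal lymphocytes and platelets, lies on the plus strand at chr11:87756864-87756927 of mm10, in an intron of its noncoding host gene Mir142hg. It stood at 1023 CPM (3282 reads) in replicate 2, against 471 CPM (954 reads) in replicate 1, ranks 87 and 130 among all genes. The log2 ratio of replicate 2 over replicate 1 was 1.16 (exact 95% interval 1.06 to 1.27).

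The value of Mir142 rests on the strand. Mir142b, another annotated microRNA gene, covers the same position on the minus strand. The 2 hairpins are shown because 1 is contained in the reverse complement of the other; capitals mark the mature products.
Mir142: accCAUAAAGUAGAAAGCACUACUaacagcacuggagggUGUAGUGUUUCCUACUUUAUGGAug
Mir142b: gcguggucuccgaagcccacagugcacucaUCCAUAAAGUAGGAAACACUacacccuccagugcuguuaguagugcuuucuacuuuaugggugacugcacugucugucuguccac
All 64 bases of the Mir142 hairpin lie within the Mir142b hairpin read on the other strand, and all 20 bases of miR-142b are complementary to miR-142a-3p. On its own strand Mir142b had 0 reads in both libraries, a depth at which its level could still be as high as 0.935 CPM in replicate 2 and 1.48 CPM in replicate 1. In counts made irrespective of strand, Mir142 had 0 reads in both libraries as well, because its reads lie where both genes overlap and were assigned to neither. Counts are per hairpin, so the share of miR-142a-5p and miR-142a-3p is not known here.

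Mir223, a microRNA of neutrophils, monocytes and platelets that restrains granulocyte activity in mice, lies at chrX:96242817-96242926 on the plus strand, over an exon of the noncoding gene F630028O10Rik. It stood at 265 CPM (849 reads) in replicate 2, against 91.4 CPM (185 reads) in replicate 1. Of the 5 members tested it had the largest difference between the libraries, a log2 ratio of 1.57 (1.35 to 1.82). Only 16 of the 329 genes tested had a higher ratio. Its rank among all genes was 153 in replicate 2 and 214 in replicate 1.

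Mir150, abundant in mature B, T and natural killer cells and known for repressing the transcription factor Myb, lies at chr7:45121757-45121821 on the plus strand and overlaps no other annotated gene. Its level was 933 CPM (2993 reads) in replicate 2, against 721 CPM (1458 reads) in replicate 1. The log2 ratio was 0.42 (0.33 to 0.51), inside the interquartile range of all genes tested, which ran from -0.50 to 0.47.

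Mir155, induced when macrophages and lymphocytes are activated, lies at chr16:84714140-84714204 on the plus strand, in an exon of its noncoding host gene Mir155hg. It was nearly level between the animals, at 231 CPM (742 reads) in replicate 2, against 204 CPM (413 reads) in replicate 1. The log2 ratio was 0.23 (0.05 to 0.41). The adjusted p was 0.0152 with TMM scaling and ran from 0.00482 to 0.0581 over the alternative settings, so that Mir155 did not pass when scaled by library totals.

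Mir146b, the other activation-linked member, lies at chr19:46342762-46342870 on the plus strand, in an intron of Mfsd13a. It had 15 reads in replicate 2, which is 4.67 CPM (2.62 to 7.71), and none in replicate 1. The exact 95% interval in replicate 1 reached 1.82 CPM, and 3 counts there would be 1.48 CPM. The 4.67 CPM of replicate 2 was 3.15-fold that limit of 3 counts. This is not a lower bound, since it leaves out the counting error of the 15 reads. Mir146b stayed below the floor of 10 CPM in both libraries and was not in the main test. Its seed mate Mir146, on chromosome 11, makes miR-146a, a brake on NF-κB signalling through Traf6 and Irak1. Mir146 stood at 1060 CPM (3400 reads) in replicate 2, against 1441 CPM (2915 reads) in replicate 1, a log2 ratio of -0.39 (-0.47 to -0.32). In replicate 2 there were thus 227 reads of Mir146 for each read of Mir146b (exact 95% interval 137 to 405). The 5p products are identical over their first 17 bases and at 20 of 22 positions. Counted from 1 at the 5′ end, with miR-146a-5p first, they differ by G18A and U21C. A read that starts at the 5′ end and stops before position 18 would fit both, and reads with several alignments were left out of the counts.

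Mir342, in an intron of Evl, a regulator of actin filaments, lies at chr12:108658620-108658718 on the plus strand. Evl is also active outside the blood, so Mir342 is not specific to leukocytes. It was the most abundant member, at 1857 CPM (5958 reads) in replicate 2, against 967 CPM (1957 reads) in replicate 1, ranks 66 and 92 among all genes. Its log2 ratio was 0.99 (0.92 to 1.06).

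All 5 members tested were higher in replicate 2 in the exact conditional binomial test (Benjamini-Hochberg adjusted over all genes tested), with adjusted p from 9e-168 for Mir342 to 0.0152 for Mir155; 4 of the 5 passed with library totals in place of TMM scaling. Of the 329 genes tested, 244 (74.2%) passed in either direction and 124 (37.7%) were higher in replicate 2. The test sets these 2 libraries against counting error, not conditions, and most genes differ by more than that. The median log2 ratio was 0.99 over the 5 members and -0.01 over all 329 genes, where TMM scaling holds it near 0. Between single genes the log2 ratios had an SD of 1.01. Absolute log2 ratios larger than that of Mir223 were seen in 34 genes, larger than that of Mir142 in 58, and larger than that of Mir155 in 243.

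**Figure D2:**
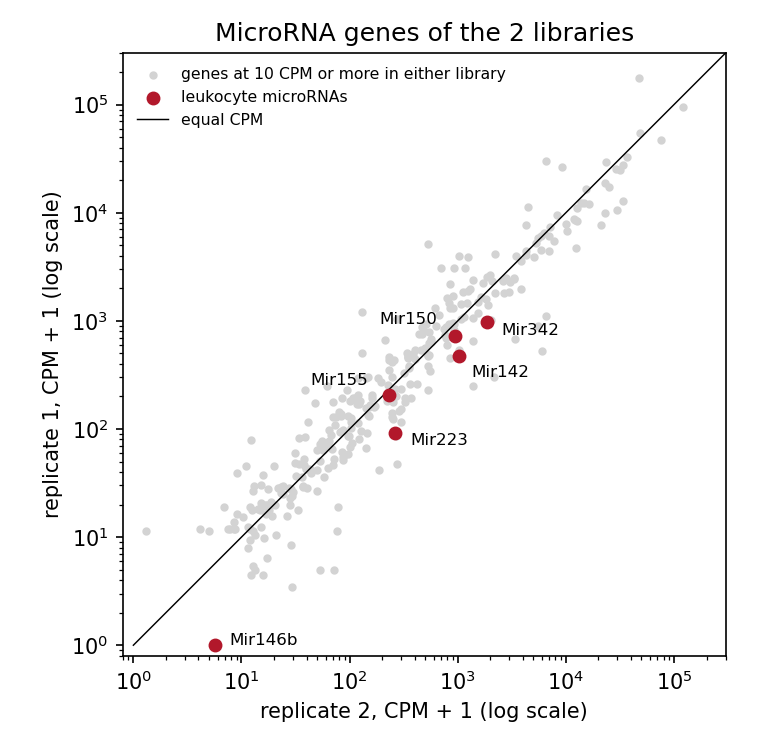
CPM + 1 in replicate 2 (horizontal, log scale) against replicate 1 (vertical, log scale) for all genes at 10 CPM or more in either library (grey) and the 6 leukocyte microRNAs (red); the line marks equal CPM. All 6 red points lie below the line and within the cloud of other genes or, for Mir146b at 4.67 and 0 CPM, below it.

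The members did not move in step. Ratios of reads between members, which do not depend on library scaling, changed by more than counting error. There were 1.10 reads of Mir142 per read of Mir150 in replicate 2 (exact 95% interval 1.04 to 1.15), against 0.654 in replicate 1 (0.602 to 0.710). For myeloid Mir223 over activation-linked Mir155, the ratio was 1.14 in replicate 2 (1.04 to 1.26) and 0.448 in replicate 1 (0.375 to 0.534). For lymphoid Mir150 over myeloid Mir223, it was 3.53 in replicate 2 (3.27 to 3.81) and 7.88 in replicate 1 (6.76 to 9.23). Mir342 over Mir142 moved less, with 1.82 in replicate 2 (1.74 to 1.89) and 2.05 in replicate 1 (1.90 to 2.22).

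Among the reads of the 6 genes, Mir342 made up 43.1% in replicate 2 and 39.4% in replicate 1. Mir142 made up 23.7% and Mir150 21.6% in replicate 2, whereas in replicate 1 Mir142 made up 19.2% and Mir150 29.4%. Mir223 made up 6.13% in replicate 2 and 3.72% in replicate 1, and Mir155 5.36% in replicate 2 and 8.31% in replicate 1. Mir150 and Mir155 thus held smaller parts of the total in replicate 2, and Mir342, Mir142 and Mir223 larger parts. Mir146b, like Mir155 an activation-linked gene, held 0.108% in replicate 2 and 0% in replicate 1.

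**Figure D3:**
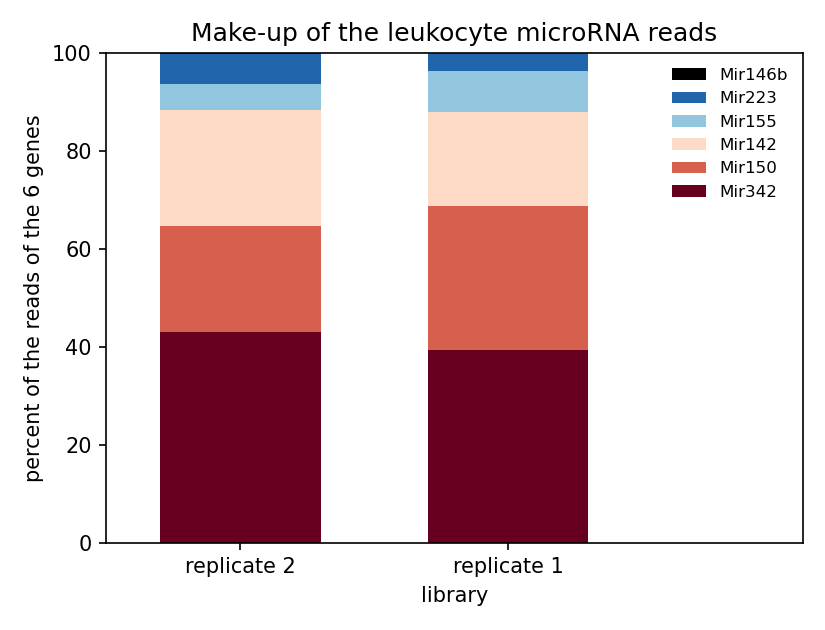
Percent of the summed reads of the 6 leukocyte microRNA genes that each gene held in replicate 2 (left bar) and replicate 1 (right bar). Mir150 fills 21.6% of the left bar and 29.4% of the right bar, and Mir146b (0.108% and 0%) is too small to be seen.

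Other microRNAs of immune cells did not all move the same way. In a list of 11 further genes, 9 reached 10 CPM in both libraries, against 302 of all 2202 genes (13.7%). Of the 9, 6 were higher in replicate 2, as were 124 of the 329 genes tested (37.7%). The remaining 3 were lower, as were 120 of the 329 (36.5%). The median log2 ratio of the 9 was 0.94. The other two, Mir511 and Mir181a-2, reached the floor in 1 library alone, which fixed their direction. Mir511, which lies in the macrophage gene Mrc1, stood at 27.7 CPM (89 reads) in replicate 2, against 7.41 CPM (15 reads) in replicate 1, with a log2 ratio of 1.82 (1.15 to 2.85). Mir21a, found in macrophages and in many other cells, stood at 12350 CPM in replicate 2, against 4685 CPM in replicate 1 (log2 ratio 1.45), and Mir221 at 849 CPM in replicate 2, against 454 CPM in replicate 1 (0.95). The 3 lower in replicate 2 were Mir146, Mir181c and Mir181a-1. Copies such as Mir181a-1 and Mir181a-2 share a mature sequence and lose the reads that fit both, so their values are uncertain. The list is not specific to leukocytes, since vessels, stroma and steroid cells also make several of its microRNAs.

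Red blood cell microRNAs ran the other way. Of the list of 4 genes, Mir486b had no entry under that name. The 3 counted genes summed to 320 CPM in replicate 2, against 653 CPM in replicate 1, and none was at 0. All 3 were lower in replicate 2, as were 120 of the 329 genes tested (36.5%). Their log2 ratios ran from -1.96 for Mir144 to -0.55 for Mir451a, the main microRNA of red cells. There were 4.47 reads of Mir142 per read of Mir451a in replicate 2 and 1.36 in replicate 1. The 5 members tested were thus higher in the library where the 3 red cell genes were lower. In the list of other leukocyte genes, however, 3 of the 9 at the floor in both libraries were lower there too. What links these differences was not tested. Mir451a and Mir486 each had 0 reads in the counts made irrespective of strand.

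**Figure D4:**
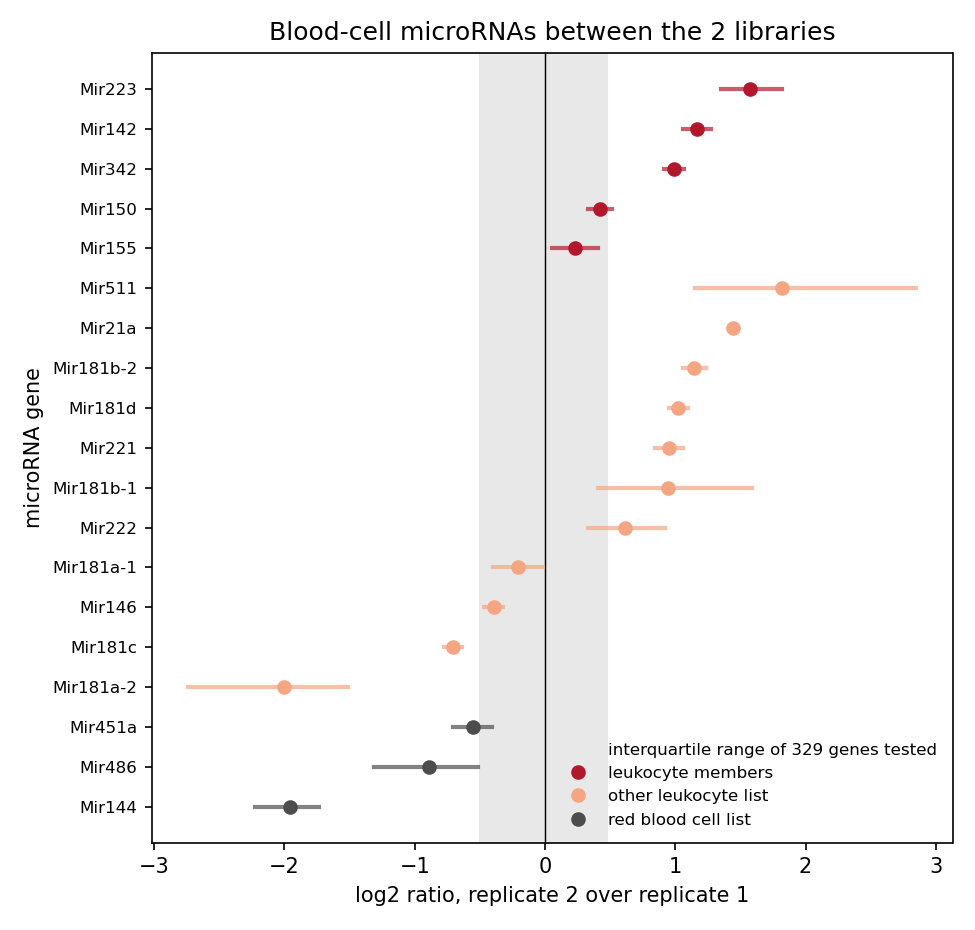
Log2 ratio of replicate 2 over replicate 1 with exact 95% intervals for the 5 leukocyte members tested (red), the list of 11 other leukocyte microRNAs (orange) and the 3 red blood cell microRNAs (grey); the band is the interquartile range of the 329 genes tested. Mir223, Mir142 and Mir342 lie to the right of the band, Mir150 and Mir155 within it, and all 3 red blood cell genes to its left.

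Markers of other tissues and cell types also differed between the libraries. So did most genes tested, with 124 of 329 (37.7%) higher and 120 (36.5%) lower in replicate 2. The floor of 10 CPM in both libraries was reached by 302 of all 2202 genes (13.7%). Epithelial microRNAs summed to 3274 CPM in replicate 2, against 742 CPM in replicate 1. Their 5 genes at 10 CPM or more in both libraries were higher in replicate 2, and Mir200a and Mir141 reached that floor in replicate 2 alone. Striated muscle microRNAs summed to 4507 CPM in replicate 2, against 11315 CPM in replicate 1. Of these sums Mir206 held 4480 CPM in replicate 2 and 11177 CPM in replicate 1. Mir1a-1 and Mir133a-2 were at 0 in both. Like Mir181a-1 and Mir181a-2, they have copies that share a mature sequence, so a count of 0 does not show absence. Mir206 and Mir499 were at the floor in both libraries and lower in replicate 2, whereas Mir133b and Mir208b reached it in replicate 1 alone. Mir122 of the liver stood at 9284 CPM in replicate 2, against 26733 CPM in replicate 1. Endothelial Mir126a took 4.79% of reads in replicate 2 and 17.8% in replicate 1, and the 2 smooth muscle genes were both higher, at a sum of 39313 CPM in replicate 2, against 28429 CPM in replicate 1. The 5 neuroendocrine microRNAs known from the adrenal medulla were all at 10 CPM or more in both libraries, with a sum of 34978 CPM in replicate 2, against 28211 CPM in replicate 1. Of these, Mir375 was higher in replicate 2 (log2 ratio 0.41), Mir7-2, Mir7b and Mir137 were lower (-0.43, -0.12 and -0.12), and Mir7-1 did not pass (0.11). Mir7-1 and Mir7-2 are copies like Mir181a-1 and Mir181a-2, so their values are uncertain in the same way. The part of these differences in the levels of the leukocyte genes was not tested.

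Over the 2 libraries, the genes with values nearest to each detected member, by distance in log2(CPM + 1), were Mir181d and Mir134 for Mir342, Mir708 and Mir671 for Mir150, Mir770 and Mir221 for Mir142, Mir700 and Mir30c-2 for Mir155, and Mir196a-2 and Mir200b for Mir223. The distances ran from 0.07 for Mir708 to 0.39 for Mir134. Mir181d, the nearest to Mir342, stood at 2018 CPM in replicate 2, against 1026 CPM in replicate 1. With 2 libraries, such a match describes level alone.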

How the data were processed

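MicroRNA-seq of 2 adrenal libraries was used. The authors deposited unnormalised read counts for each microRNA gene, library by library, on mm10 with GENCODE M21 annotation, per the text files deposited beside them. The aligner is not given in the sources used here. The 3 columns hold reads irrespective of strand, on the gene's strand and on the opposite strand, by their values; the gene's strand was used. Summary lines, kept out of totals, held 27.2% (replicate 2) and 25.0% (replicate 1) of reads as multiply aligned, 26.4% and 28.1% as unmapped, and 8.86% and 8.55% as outside microRNA genes. All 2202 identifiers matched M21.

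CPM was taken over all assigned counts. Genes at 10 CPM or more in either library were tested by a two-sided exact conditional binomial test with TMM-scaled library sizes (edgeR 4.0.16, R 4.3.3) and Benjamini-Hochberg adjustment at 0.05 over all genes tested. Log2 ratios were taken after adding a pseudocount of 1 CPM, which shrinks those of low genes; their intervals did not use it. Shares have Clopper-Pearson 95% intervals. A count of 0 was given a limit of 3 counts, which is below the upper end of such an interval. Both cover counting error only. The test was checked on simulated counts that held counting error alone, so the check does not cover variation between animals. Tables and figures used Python 3.11.15, SciPy 1.17.1 and matplotlib 3.10.9; alternatives included DESeq2 1.42.0 size factors.

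The members, gene lists and tests were chosen with earlier results of these data known. Genes named were the members, genes antisense to or sharing a seed with a member, the 2 genes nearest in level to each detected member, and the marker lists.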

Additional observations from a re-analysis of the deposited data

Results flagged for a closer look

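Reads on the strand opposite to Mir150, which the comparisons did not use, numbered 1 in replicate 2 and 4 in replicate 1, beside 2993 and 1458 reads on its own strand. Whether these few reads exceed background was not tested. The other 5 members had no read on the opposite strand in either library.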

How the results depend on the processing

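With all reads as the denominator, the mean summed share of the 6 genes was 0.128%, and without Mir342, an alternative chosen after seeing the data, it was 0.197%. It was 0.394% without the most abundant gene of each library and 0.351% irrespective of strand. In counts irrespective of strand Mir142 had 0 reads, which lowers the sum. Mir126a had 3 such reads in replicate 2 and 15 in replicate 1, against 153788 and 359617 on its own strand, which lowers the total. When each replicate was left out in turn, the share ran from 0.245% to 0.431%. For the 5 tested members, all 24 log2 ratios recomputed under other scalings, pseudocounts and strand kept their direction. A change of pseudocount cannot reverse a direction, so that part of the 24 was fixed in advance. Of 24 tests recomputed under other scalings, filters and strand, 23 kept their call; the exception was Mir155, with an adjusted p of 0.0581 and a log2 ratio of 0.18 when scaled by library totals. Log2 ratios ran from 1.12 to 1.20 for Mir142, 1.52 to 1.60 for Mir223, 0.94 to 1.02 for Mir342 and 0.37 to 0.45 for Mir150. Mir142 has no ratio irrespective of strand, where it has no reads. When all 790 genes with a read were tested, Mir146b passed as well (log2 ratio 2.52, adjusted p 0.00296 by the exact conditional binomial test). Over the scaling, filter and strand settings, between 4 and 6 members passed, against 5 in the main test. Of all genes, 247 of 790 (31.3%) passed without a floor and 195 of 217 (89.9%) at a floor of 100 CPM, against 244 of 329 (74.2%) in the main test. At a floor of 100 CPM, 4 members were detected in both libraries, since Mir223 stood at 91.4 CPM in replicate 1. No paired analysis was possible because the series has 1 group.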
